A study of Mus musculus with 4 samples.

Results

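Cells of the thick ascending limb (TAL) were studied in kidneys of male C57BL/6 mice, 6-8 weeks old, that had received intraperitoneal glyoxylate for 1, 4 or 7 days (D1, D4 and D7) or for 0 days (D0). Glyoxylate is turned into oxalate in the body, and oxalate forms calcium crystals in the tubules. Kidneys were digested with trypsin and sequenced as single cells in droplets, with 1 library per time point, and the labels do not give the number of mice behind a library. A barcode was taken as a TAL cell when it held at least 3 unique molecular identifiers (UMIs, counts of single RNA molecules) of Slc12a1, more of Slc12a1 than of Slc12a3, and none of the leukocyte gene Ptprc. It also had to hold at least 500 UMIs, of which at most 50% came from mitochondrial genes. This rule chose 471 of 56471 barcodes that passed the UMI and mitochondrial limits, with 102 of 14485 at D0, 103 of 11428 at D1, 100 of 16103 at D4 and 166 of 14455 at D7. The members were chosen by their Slc12a1, Slc12a3 and Ptprc counts, so the levels of these 3 genes are a description only, and no other gene below played a part in the choice.

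The TAL is the last part of the loop of Henle and leads into the distal convoluted tubule. It takes up sodium, potassium and chloride from the urine through NKCC2, the product of Slc12a1, without letting water follow, and the voltage this sets up drives calcium and magnesium through claudin pores between the cells. TAL cells are the source of uromodulin, the most abundant protein of normal urine and a known inhibitor of calcium oxalate crystal aggregation, and they are a main site of the precursor of epidermal growth factor (Egf) in the kidney. After tubule damage, TAL and collecting duct cells are known to make lipocalin 2 (Lcn2, NGAL), an iron-carrier protein measured in urine as a marker of kidney injury.

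The genes with high ratios at every treated day included Lcn2, Spp1 (osteopontin, a secreted phosphoprotein that binds calcium crystals) and Socs3 (a feedback inhibitor of cytokine receptors that signal through STAT3). The promoters of these 3 genes are shown because the genes stood higher together in the summed counts. Clu and Lgals3 also stood higher at each treated day, and their promoters are not shown. The sequences are from RefSeq on GRCm38.p6 and run 5′ to 3′ on the strand of the gene, from 250 bases before to 50 bases after the start of the transcript. Capitals mark a match to the STAT motif TTCNNNGAA.
Lcn2 promoter, chr2:32387690-32387989, minus strand: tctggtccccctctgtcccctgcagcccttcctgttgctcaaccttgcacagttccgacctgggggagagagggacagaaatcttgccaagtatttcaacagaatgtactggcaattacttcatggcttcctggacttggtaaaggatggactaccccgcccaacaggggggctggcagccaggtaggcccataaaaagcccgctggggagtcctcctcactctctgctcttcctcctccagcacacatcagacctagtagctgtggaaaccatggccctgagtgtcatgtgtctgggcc
Spp1 promoter, chr5:104434861-104435160, plus strand: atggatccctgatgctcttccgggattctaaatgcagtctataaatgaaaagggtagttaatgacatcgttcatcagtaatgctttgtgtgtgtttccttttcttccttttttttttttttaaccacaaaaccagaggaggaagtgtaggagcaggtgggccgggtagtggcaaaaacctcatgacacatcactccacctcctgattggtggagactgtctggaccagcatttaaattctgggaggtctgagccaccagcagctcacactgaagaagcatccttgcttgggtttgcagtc
Socs3 promoter, chr11:117969317-117969616, minus strand: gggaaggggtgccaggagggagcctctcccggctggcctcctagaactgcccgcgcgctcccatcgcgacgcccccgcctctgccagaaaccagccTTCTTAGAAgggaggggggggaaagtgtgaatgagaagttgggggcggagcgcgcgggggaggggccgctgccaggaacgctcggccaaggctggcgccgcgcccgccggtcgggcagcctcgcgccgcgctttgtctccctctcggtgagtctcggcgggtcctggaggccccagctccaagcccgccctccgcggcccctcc
Both strands were searched for the STAT motif, for the AP-1 motif TGANTCA and for the CRE motif TGACGTCA. The Socs3 window held 1 STAT match and the Lcn2 and Spp1 windows held none of the 3 motifs. Another Spp1 window, chr5:104435942-104436241 on the plus strand, also held none of the 3 and is not printed. Windows of Egf and Umod were searched as well, held none of the 3 motifs and are not printed. Over all 32851 promoters of this length, 8.30% held the STAT motif, 7.81% the AP-1 motif and 1.79% the CRE motif. The match is a description of letters and was not tested as a site.

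TAL cells made up 0.704% of the kept barcodes at D0 (95% exact Clopper-Pearson interval 0.575 to 0.854), with 0.901% (0.736 to 1.09) at D1, 0.621% (0.506 to 0.755) at D4 and 1.15% (0.981 to 1.34) at D7. The share at D7 was 1.63 times that at D0 (1.27 to 2.11), while the ratios at D1 (1.28, 0.964 to 1.70) and D4 (0.882, 0.663 to 1.17) had intervals that include 1. The shallowest deposited barcode held 500 UMIs at D0 and at D1, but 2919 at D4 and 2773 at D7, so shares were also taken over barcodes with at least 3000 UMIs. There the ratio was 1.54 at D7 (1.16 to 2.06), 1.41 at D1 (1.01 to 1.97) and 0.842 at D4 (0.615 to 1.16). The ratios depended on the limits set on the cells. With at most 25% mitochondrial UMIs the shares were 0.727, 0.661 and 1.24% at D1, D4 and D7, against 0.429% at D0, so that D4 stood above D0. With barcodes holding proximal tubule RNA left out they were 0.718, 0.286 and 0.595%, against 0.504% at D0. With 1 library per time point there was no replicate check and no test. All intervals cover counting error only, and a difference between days cannot be told apart from a difference between libraries or mice.

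The TAL markers were present in the chosen cells, beside markers of other tubule segments. Umod, the uromodulin gene, had a median of 40, 49, 42 and 49 UMIs per TAL cell at D0, D1, D4 and D7, and 1, 1, 3 and 2 cells held none. Scaled to the summed UMIs of the TAL cells of a library (CPM, counts per 1e6 UMIs), Umod stood at 9487, 10610, 9839 and 9263 CPM in TAL cells and at 46.0 to 50.4 CPM in proximal tubule cells of the same libraries (Lrp2 and Slc34a1 together at least 2 UMIs, Slc12a1 0). Cldn16 and Tmem207, the other TAL markers, were at 84.5 and 99.7 CPM in TAL cells at D0, against 0 for both in distal convoluted tubule (DCT) cells (Slc12a3 at least 3 UMIs and more than Slc12a1, Ptprc 0). Umod did not separate TAL from DCT cells as cleanly, since DCT cells held 2929 to 3957 CPM of it. Proximal tubule markers (18 genes) summed to 14930 to 20885 CPM over the libraries, more than the 11045 to 13169 CPM of the 4 TAL markers, and in barcodes without proximal tubule RNA to 2292 to 3064 CPM against 13388 to 16960 CPM. The 8 markers of the distal convoluted and connecting tubule summed to 3317 to 4110 CPM, of which Klk1 (tissue kallikrein) made up 3170 to 3823 CPM, above its 2678 to 3075 CPM in DCT cells. All 4 podocyte and all 6 mesenchymal markers were at 0 in TAL cells of every library. The summed level of 6 endothelial markers was at most 4.57 CPM, and that of 4 neutrophil markers at most 10.1 CPM.

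The Slc12a1 limit fell in different parts of its range at different days. The median was 16.5 UMIs per TAL cell at D0, 14 at D1, 8 at D4 and 7 at D7, and 6, 9, 16 and 18 cells stood just inside, at 3 UMIs. Just outside, at 2 UMIs, stood 16, 22, 19 and 26 barcodes, with a median Umod count of 5.5, 10, 18 and 30 UMIs, where those at 3 UMIs had 9.5, 16, 28.5 and 43. The barcodes at 2 UMIs thus held Umod as well.

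The median depth of a TAL cell was 4876.5 UMIs at D0, 5074 at D1, 4665.5 at D4 and 5900.5 at D7, and the library sums were 591877, 691411, 540577 and 1093615. Mitochondrial genes took a median of 15.1, 14.5 and 14.7% of a TAL cell's UMIs at D1, D4 and D7, against 25.7% at D0. No TAL barcode was shared between libraries. Many TAL barcodes also held proximal tubule RNA. At least 2 UMIs of Lrp2 and Slc34a1 together were found in 29 of 102 TAL barcodes at D0 (28.4%), 21 of 103 at D1 (20.4%), 54 of 100 at D4 (54.0%) and 80 of 166 at D7 (48.2%), and these barcodes were deeper (medians of 8810, 11118, 5941.5 and 7535 UMIs) than the rest (4298, 4237, 3906.5 and 4699 UMIs). Set against proximal tubule cells of the same library, TAL cells held a median of 25.6, 27.6, 39.0 and 31.5% of the level of 16 other proximal tubule genes. Without those barcodes it was 4.33, 3.81, 6.97 and 5.40%. Free RNA and doublets were not told apart. Some ratios over D0 are therefore also given over the barcodes without proximal tubule RNA, of which there were 73, 82, 46 and 86. In the text these are the ratios of Lcn2, Spp1, Clu and Egf, and at D7 those of Umod and Gdf15. Most other single-gene ratios in the text are over all TAL barcodes only, among them most of those of the lower genes other than Egf. The plot of ratios over D0 shows both sets of barcodes for the genes drawn in it.

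**Figure D1:**
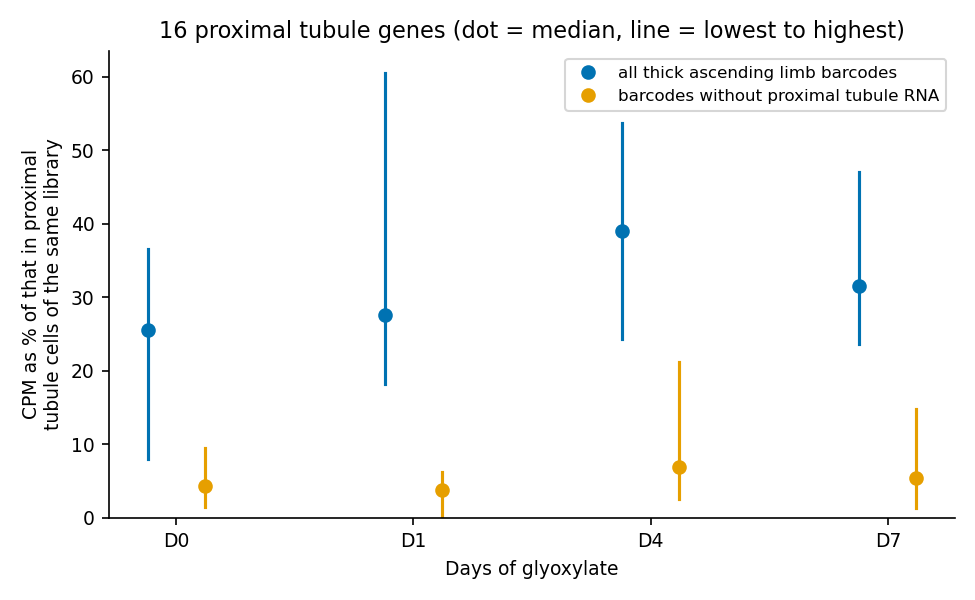
Level of 16 proximal tubule genes in TAL barcodes as a percent of their level in proximal tubule cells of the same library, by days of glyoxylate; dots are medians over the genes and lines run from the lowest to the highest gene. The medians were 25.6 to 39.0% over all TAL barcodes (blue) and 3.81 to 6.97% over TAL barcodes without proximal tubule RNA (orange).

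Lcn2 (ENSMUSG00000026822, chromosome 2, 32384633 to 32388252, minus strand, in the GENCODE M21 annotation of mm10) was nearly silent in TAL cells at D0 and present at every treated day. It had 3 UMIs at D0, 415 at D1, 307 at D4 and 980 at D7, which is 5.07 CPM (exact Poisson interval 1.05 to 14.8), 600 CPM (544 to 661), 568 CPM (506 to 635) and 896 CPM (841 to 954). Over D0 this was 118-fold (40.2 to 577) at D1, 112-fold (38.0 to 546) at D4 and 177-fold (60.3 to 859) at D7. In barcodes without proximal tubule RNA it was 84.3, 115 and 140. Proximal tubule cells held only 0.626, 5.76, 3.72 and 9.15 CPM. In DCT cells Lcn2 was at 0, 119, 55.5 and 422 CPM, below the TAL level at each treated day.

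Lcn2 was found in part of the TAL cells. It was detected in 3 cells at D0, and in 53.4, 49.0 and 56.6% of the cells at D1, D4 and D7. With each cell thinned to 1000 UMIs, which left out 3 shallower cells at D0 and 3 at D1, the shares were 2.02% at D0 (0.246 to 7.11), 34.0% (24.8 to 44.2) at D1, 26.0% (17.7 to 35.7) at D4 and 31.9% (24.9 to 39.6) at D7. In 2000 thinned proximal tubule cells of each library, drawn from those with at least 1000 UMIs, the share was 0.10 to 0.60%. Over all proximal tubule cells of a library the median depths were 5014 to 6976 UMIs. Per 10000 UMIs of a TAL cell, the highest Lcn2 value was 5.57 at D0 and 45.8, 63.1 and 96.0 at D1, D4 and D7. The highest D0 cell thus lay within the range of the treated cells, many of which held no Lcn2.

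Spp1 (ENSMUSG00000029304, chromosome 5, 104435118 to 104441050, plus strand) was higher across the TAL population. Its level was 1639 CPM at D0 (1537 to 1745), 21016 CPM at D1 (20676 to 21361), 12522 CPM at D4 (12225 to 12824) and 15831 CPM at D7 (15596 to 16069). That is a ratio over D0 of 12.8 (12.0 to 13.7) for D1, 7.64 (7.14 to 8.18) for D4 and 9.66 (9.05 to 10.3) for D7, and of 12.6, 9.49 and 10.7 without proximal tubule RNA. Per 10000 UMIs, the median TAL cell held 13.1, 181, 81.3 and 114 Spp1 UMIs at D0, D1, D4 and D7, and the highest cell of D0 held 76.4. The D0 maximum thus lay below the median of each treated day, although the ranges overlapped. After thinning, Spp1 was detected in 97.6% of TAL cells at D7 against 68.7% at D0, where 50.2% of proximal tubule cells at D7 held it. Spp1 was at 267, 576, 1159 and 2161 CPM in proximal tubule cells, where the order of days differed: the level there was highest at D7, while in TAL cells it was highest at D1. In DCT cells it was at 966, 7184, 5636 and 8258 CPM.

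**Figure D2:**
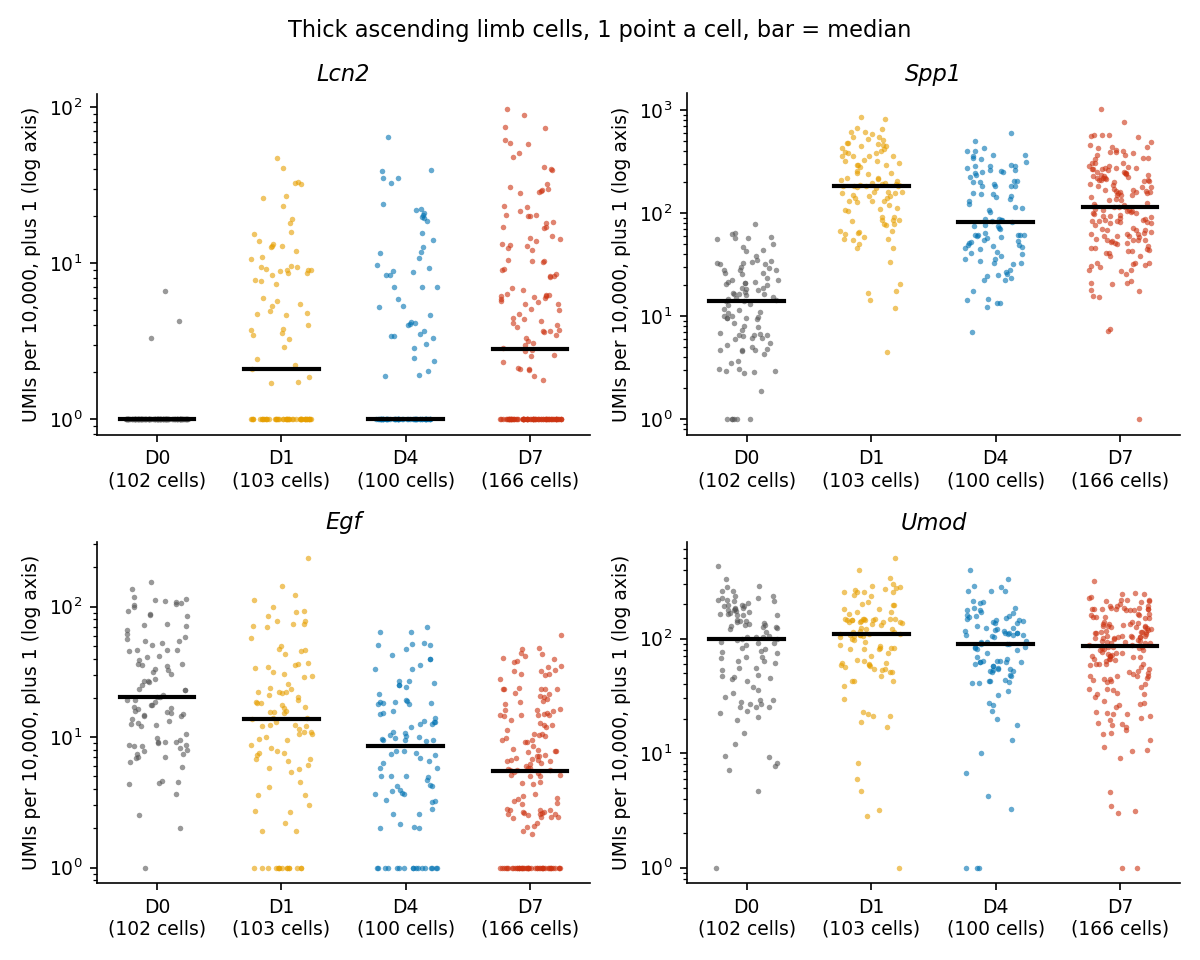
UMIs per 10,000 of 4 genes in single TAL cells, plus 1 on a log axis, by days of glyoxylate; each point is a cell and each bar a median. Lcn2 is absent from all but 3 cells at D0, the Spp1 medians are 181, 81.3 and 114 at D1, D4 and D7 against 13.1 at D0, the Egf medians 12.8, 7.61 and 4.5 against 19.4, and the Umod medians lie between 85.8 and 109.

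Other genes named at every treated day were Clu, Lgals3 and Socs3. Clu (clusterin, a secreted chaperone) was at 49.0, 638, 440 and 385 CPM in TAL cells at D0, D1, D4 and D7, with D1 at 13.0 times (8.94 to 19.7) and D7 at 7.86 times (5.39 to 11.9) the D0 level. In barcodes without proximal tubule RNA the Clu ratios were 19.6 at D1, 17.8 at D4 and 12.8 at D7. DCT cells held 1655 CPM of Clu at D7 and already 571 CPM at D0. Lgals3 (galectin-3, a lectin) was at 155, 675, 592 and 961 CPM, 6.18 times higher at D7 than at D0 (4.99 to 7.74). Socs3 was at 16.9, 156, 124 and 179 CPM, with D1 at 9.25 times (4.84 to 19.8) and D7 at 10.6 times (5.65 to 22.5) the D0 level. After thinning, Socs3 was detected in 4.04% of TAL cells at D0 (1.11 to 10.0) and 3% at D1 (0.623 to 8.52). At D4 the share was 8% (3.52 to 15.2) and at D7 13.9% (8.99 to 20.1). The thinned share was thus not higher at D1, and the interval of each treated day overlapped that at D0.

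Havcr1 (Kim-1, a scavenger receptor of injured tubule cells) was at or near 0 in TAL cells. It had 0 UMIs at D0, D1 and D4, for which 3 counts stand as the limit (5.07, 4.34 and 5.55 CPM), and 6 UMIs at D7 (5.49 CPM, 2.01 to 11.9), of which 1 lay in barcodes without proximal tubule RNA. Proximal tubule cells held 0.138, 4.95, 14.8 and 20.6 CPM.

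Umod did not follow the injury genes. Its ratio over D0 was 1.12 (1.08 to 1.16) for D1, 1.04 (0.999 to 1.08) for D4 and 0.976 (0.945 to 1.01) for D7, and the D7 value was 0.857 (0.821 to 0.893) without proximal tubule RNA. Per 10000 UMIs, the median cell held 97.8, 109, 88.7 and 85.8 Umod UMIs at D0, D1, D4 and D7.

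Egf (ENSMUSG00000028017, chromosome 3, 129677565 to 129755316, minus strand), the other hallmark secreted product of the segment, was lower at each later day, past 2-fold at D4 and D7. It was at 2800 CPM at D0 (2666 to 2938), 1686 CPM at D1 (1591 to 1786), 1178 CPM at D4 (1089 to 1274) and 795 CPM at D7 (743 to 849). The ratio over D0 was 0.602 (0.558 to 0.650) for D1, 0.421 (0.384 to 0.461) for D4 and 0.284 (0.261 to 0.308) for D7, and 0.589, 0.306 and 0.310 without proximal tubule RNA. All but 1 of the cells at D0 had an Egf UMI, as did 85.4, 83.0 and 72.3% at D1, D4 and D7, and after thinning the shares were 73.7, 62.0, 54.0 and 40.4%. DCT cells showed the same order of days, with 1501, 706, 494 and 433 CPM.

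Several other genes were lower as well. Wfdc15b (a WAP-domain protein) was at 2698, 1093, 1304 and 864 CPM at D0, D1, D4 and D7, with a ratio over D0 of 0.405 at D1 (0.371 to 0.442) and 0.320 at D7 (0.295 to 0.347). Nccrp1, an F-box-like protein gene that was close to 0 in DCT and proximal tubule cells, was at 182, 34.7, 55.5 and 35.7 CPM, 0.190 times its D0 level at D1 (0.117 to 0.298). Tmem207 was at 99.7, 53.5, 38.8 and 21.9 CPM, 0.220 times its D0 level at D7 (0.131 to 0.359). Ckb, the brain-type creatine kinase that buffers ATP, was at 1316, 613, 551 and 502 CPM, 0.381 times its D0 level at D7 (0.341 to 0.426). Ptger3, the prostaglandin E2 receptor that restrains salt uptake in this segment, was at 188, 95.5, 128 and 85.0 CPM, 0.453 times at D7 (0.340 to 0.603). Thra (a thyroid hormone receptor) and Ppp1r1b (DARPP-32, a phosphatase inhibitor) were 0.330 times (0.212 to 0.508) and 0.325 times (0.232 to 0.452) their D0 levels at D7.

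**Figure D3:**
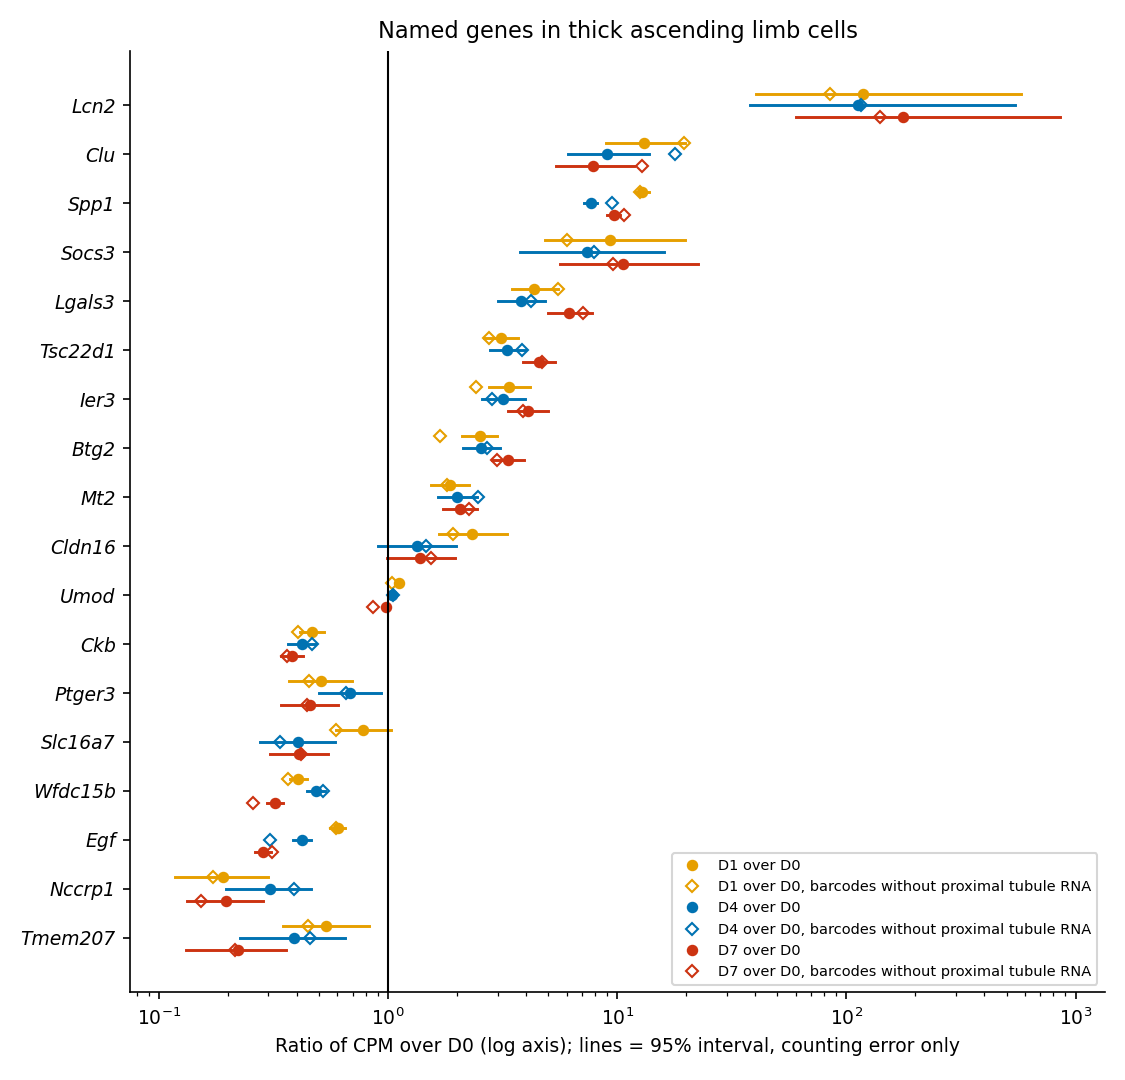
Ratio of CPM over D0 in TAL cells for 18 genes, on a log axis, at D1 (orange), D4 (blue) and D7 (red); filled circles are all TAL barcodes with their 95% counting intervals and open diamonds are barcodes without proximal tubule RNA. Lcn2 reaches 177 at D7, Umod stays near 1 and Tmem207 reaches 0.220.

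Across the transcriptome, 2434 genes had a mean of at least 50 CPM over the 4 libraries' TAL sums, and a gene was called when its ratio of CPM plus 10 reached 2-fold. At D1, 36 genes were higher (1.48% of those measured) and 13 lower (0.534%). At D4, 51 were higher (2.1%) and 16 lower (0.657%), and at D7, 75 were higher (3.08%) and 17 lower (0.698%). The 3 comparisons share the D0 library. A gene under 50 CPM at D0 can pass the filter only through the treated libraries, so the filter favours higher calls. With no filter on level, 184, 218 and 226 of 13976 genes were higher and 59, 112 and 51 lower at D1, D4 and D7. The median log2 ratio over all 2434 genes was 0.10 at D1, 0.09 at D4 and 0.08 at D7. With edgeR's TMM factors as the scaling the D1 median moved to -0.04, and 21 genes were higher and 20 lower at D1. The Lcn2, Spp1, Egf and Wfdc15b differences at D7 were past 2-fold under both scalings. With mitochondrial shares limited to 25%, the log2 ratios at D7 were 6.28 for Lcn2, 3.49 for Spp1 and -1.83 for Egf, against 5.91, 3.26 and -1.80 with the 50% limit. The same 2434 genes were called more often in barcodes without proximal tubule RNA, with 71, 115 and 130 higher (2.92, 4.72 and 5.34%) and 22, 61 and 35 lower (0.904, 2.51 and 1.44%) at D1, D4 and D7.

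Of 46 listed genes of tubule injury and dedifferentiation, 23 passed the level filter. At D1, 6 were higher and 0 lower, at D4 8 and 0, and at D7 11 and 0, with median log2 ratios of 0.45, 0.46 and 0.78. In barcodes without proximal tubule RNA 7, 8 and 10 were higher. Clu, Gdf15, Lcn2, S100a6 and Tmsb10 were under 50 CPM at D0 and passed the filter through the treated libraries, so the filter favours higher calls and the counts are a description only. Besides those named above, at D7 they included Krt8 (a keratin of simple epithelia; 218 against 72.7 CPM at D0), Cd24a (a surface glycoprotein of regenerating tubule cells; 649 against 306 CPM), S100a11 (593 against 233 CPM) and the thymosin genes Tmsb10 (110 against 25.3 CPM) and Tmsb4x (281 against 127 CPM). Gdf15, a stress cytokine, was at 132 against 20.3 CPM, where carried proximal tubule RNA would give 105 and 18.8 CPM. In barcodes without proximal tubule RNA Gdf15 was at 93.9 CPM at D7 (40 UMIs) against 3.12 CPM at D0 (1 UMI), a ratio of 30.1 (5.10 to 1217). Others were not called: Krt7 was at 212 against 166 CPM, Sox4 (a developmental transcription factor) at 207 against 127 CPM, and Plau (urokinase) at 43.9 against 94.6 CPM (0.464 times, 0.309 to 0.695), which the added 10 CPM kept short of 2-fold lower.

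Immediate-early and cytokine-response genes, the transcription factors and feedback inhibitors induced within minutes of a stimulus, passed the filter in 22 of 34 cases found in the files, of 35 listed. At D1, 7 were higher, at D4 11 and at D7 17, with none lower and medians of 0.87, 0.97 and 1.32. In barcodes without proximal tubule RNA 2, 16 and 18 were higher. Cebpb, Cyr61, Id3, Klf2, Rhob and Socs3 passed the filter in the same way, from under 50 CPM at D0. Fos was at 537, 1012, 1350 and 1489 CPM at D0, D1, D4 and D7, and after thinning it was detected in 22.2, 24.0, 54.0 and 58.4% of TAL cells, against 11.8, 10.2, 26.4 and 25.9% of proximal tubule cells. Ier3 (an anti-apoptotic early response gene) was higher than at D0, 3.37 times (2.75 to 4.16) at D1 and 4.06 times (3.35 to 4.96) at D7, and Btg2 (an antiproliferative gene) 3.33 times at D7 (2.83 to 3.93). Rhob (a small GTPase), at 169 against 28.7 CPM, was 5.89 times higher at D7 than at D0 (3.58 to 10.3). Outside the list, Tsc22d1 (a leucine zipper factor induced by TGF-beta) was 4.54 times higher at D7 (3.88 to 5.34). Egr1 was called at no day, at 417 CPM at D7 against 216 CPM at D0. The same 22 genes were also higher in DCT cells, in 8, 17 and 21 cases, and in proximal tubule cells in 0, 8 and 10 cases. Of all 2434 genes, 1.36, 3.16 and 3% were higher and 0.123, 0.247 and 0.123% lower in DCT cells at D1, D4 and D7, and in proximal tubule cells 0.123, 0.575 and 1.19% were higher and 0.0411, 0 and 0.164% lower. The 23 measured injury genes were higher in 13, 10 and 14 cases in DCT cells and in 3, 4 and 8 cases in proximal tubule cells, where 1 was lower at D7. Warm digestion, which all 4 libraries underwent, is known to induce such genes, and its part in the result was not tested.

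Of 24 listed transporters, channels and regulators, 16 passed the filter, and the only called gene was Slc16a7 (a monocarboxylate transporter), at 188, 146, 75.8 and 76.8 CPM at D0, D1, D4 and D7, with a ratio of 0.410 at D7 (0.305 to 0.549). The medians were 0.02, -0.28 and -0.29, beside 0.10, 0.09 and 0.08 over all 2434 genes, of which 0.657 and 0.698% were lower at D4 and D7, so nothing is read from how few of the 16 were called. With barcodes holding proximal tubule RNA left out, 0, 2 and 1 were lower and 0, 1 and 0 higher at D1, D4 and D7. Slc12a1 itself, which chose the cells, was at 3055, 2308, 1759 and 1644 CPM at D0, D1, D4 and D7. Atp1b1, a sodium pump subunit, was at 2618 CPM at D7 against 2555 CPM at D0. The potassium channel gene Kcnj1 (ROMK) was at 210 against 265 CPM, and Wnk1 (a kinase that sets NKCC2 activity) at 234 against 343 CPM. For Bsnd (barttin), at 43.9 against 67.6 CPM, the interval of the ratio includes 1 (0.649, 0.418 to 1.01).

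Among 11 of 25 listed identity genes that passed, Ppp1r1b was lower at D4 and D7 and Pou3f3 (a transcription factor of the TAL lineage) at D4 alone, where it was at 42.5 CPM against 123 CPM at D0. The other 9, among them Irx1, Irx2 and Tfap2b, were not called at any day. All 30 oxidative phosphorylation genes stayed within 2-fold, with medians of -0.23, -0.10 and -0.15. Of all 2434 genes, 1.48, 2.1 and 3.08% were higher and 0.534, 0.657 and 0.698% lower at D1, D4 and D7. Nothing is therefore read from how few genes of the identity list, this list or the lists below were called. In the energy metabolism list of 27, Ckb was the single call, at each day. Of 15 genes of the unfolded protein and integrated stress responses, none was called at D1, with a median of 0.60, while in barcodes without proximal tubule RNA 3, 2 and 1 were higher over the 3 days. At D1 Hspa5 (BiP, the main chaperone of the endoplasmic reticulum) was at 586 CPM against 375 CPM at D0, and Pdia6 (a disulfide isomerase) at 256 against 145 CPM. By D7 the median was 0.12, and Sqstm1 (p62, an autophagy receptor) was the single call. The heat shock list of 16 had 0, 2 and 2 calls, Hspa1a and Hspa1b, a near-identical pair whose reads cannot be split with certainty. Of 17 antioxidant and metal-binding genes, 0, 1 and 2 were higher, namely Gpx3 at D4 and Gclc and Mt2 at D7. For Gpx3, carried proximal tubule RNA would give 3232 of the 3546 CPM at D4. The metallothionein Mt2 was at 572 CPM at D7 against 279 CPM at D0 (2.05 times, 1.73 to 2.45). The chemokine Cx3cl1 (fractalkine) was at 75.0 against 25.3 CPM (2.96 times, 1.69 to 5.53). It was the single call among the 3 of 32 listed chemokine and NF-kB genes that passed the filter. Being under 50 CPM at D0, Cx3cl1 passed through the treated libraries, so this call is a description only. Of 4 p53 and growth arrest genes, Gadd45g was higher at each treated day (642 CPM at D7 against 248 CPM at D0) and Gadd45a at D7. None of the 3 cell cycle genes that passed, of 20 listed, was called.

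Among 12 of 16 listed secreted and surface proteins that passed, the calls were Lcn2, Spp1 and Clu, higher at each treated day, and Egf, lower at D4 and D7. These 3 higher genes are also on the injury list. Of them, Lcn2 and Clu passed the filter through the treated libraries, so their calls are a description only. Of 10 of 22 listed claudins and divalent cation genes, Cldn16 was higher at D1 and S100g at D7, while Tmem207 was lower at D4 and D7 and Cldn10 at D7. Ptger3, lower at D7, was the single call among 3 of 20 listed hormone receptors and the single measured gene of the macula densa list. Of 8 antigen presentation and interferon genes, 1 was lower at each day, Cd74, and B2m (the light chain of MHC class I) was higher at D4 and D7. Carried proximal tubule RNA would give 39.9 of the 59.4 CPM of B2m at D7, against 23.6 of 23.7 CPM at D0. B2m too passed the filter only through the treated libraries.

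Values of 2 genes in the ranking rested on single barcodes. At D0 1 TAL barcode held 93.3% of the 89 UMIs of Cd74 (an antigen presentation gene), and without the top barcode of each library Cd74 was at 34.9 CPM at D7 against 10.2 CPM at D0, in the opposite direction to the full sums (43.0 against 150 CPM). The summed level of 9 mononuclear phagocyte markers, Cd74 among them, was 88.2, 24.0 and 105 CPM at D1, D4 and D7, against 242 CPM at D0. At D7 1 barcode held 73.9% of the 568 UMIs of S100g (a calcium-binding protein of the distal and connecting tubule, at 3882 to 6623 CPM in DCT cells), and without the top barcode of each library S100g was at 136 CPM at D7 against 66.3 CPM at D0.

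TAL cells are known to form a mosaic, in which some cells carry the sodium-selective pore claudin-10 and others the divalent-cation complex of claudin-16 and claudin-19. Cldn10 was at 840, 434, 605 and 412 CPM at D0, D1, D4 and D7, and Cldn16 at 84.5, 197, 113 and 116 CPM. The Cldn16 ratio was 2.33 at D1 (1.67 to 3.29) and 1.37 at D7 (0.984 to 1.95). Cells with a Cldn16 UMI made up 23.5, 50.5, 42.0 and 44.6% of TAL cells, and those with a Cldn10 UMI 75.5, 46.6, 70.0 and 59.0%. After thinning, the Cldn16 share was 9.09% at D0 (4.24 to 16.6). It was 20% at D1 (interval 12.7 to 29.2), then 8% at D4 (interval 3.52 to 15.2) and finally 10.2% at D7 (interval 6.08 to 15.9), each interval overlapping that at D0, and the D7 log2 ratio was -0.15 in thinned cells against 0.42 in full cells. The thinned Cldn10 shares were 51.5, 30, 44 and 30.7%. Proximal tubule cells also hold Cldn10 (271 to 314 CPM), so the split was taken in barcodes without proximal tubule RNA. Of these, 8 of 73 at D0 held more Cldn16 than Cldn10, as did 31 of 82 at D1, 11 of 46 at D4 and 26 of 86 at D7. More Cldn10 was held by 50, 28, 25 and 38. These counts were not thinned, and a different sample of cells and a different expression per cell cannot be told apart.

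The Egf difference at each treated day and the Spp1 difference at D7 were present on both sides of the claudin split. In cells with more Cldn16, Egf was at 2942, 2139 and 1343 CPM at D1, D4 and D7, against 6286 CPM in the 8 cells of D0, and in cells with more Cldn10 at 1359, 925 and 1142 CPM, against 3322 CPM. Spp1 at D7 was 8.30 times its D0 level in cells with more Cldn16 (6.93 to 10.0) and 10.5 times in cells with more Cldn10 (9.47 to 11.6). For Wfdc15b the D1 ratio over D0 was 0.800 in cells with more Cldn16 (0.635 to 1.01) and 0.344 in cells with more Cldn10 (0.295 to 0.399), and at D7 0.415 and 0.284. These intervals leave out the spread between cells, which among all D0 cells ran between 0 and 120 Wfdc15b UMIs per 10000, and the difference between the claudin classes was not tested. Nccrp1 had 62 of its D0 UMIs in the 50 cells with more Cldn10 and 3 in the 8 cells with more Cldn16. Scaled to the UMIs of each class, it was at 280 CPM (215 to 359) in cells with more Cldn10. In cells with more Cldn16 it was at 61.0 CPM (12.6 to 178), a level that rests on those 3 UMIs. The D1 ratio of Nccrp1 in cells with more Cldn10 was 0.126 (0.0395 to 0.310).

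Within a treated library, cells with a Lcn2 UMI held less Egf than cells without one. At D1 Egf was at 988 CPM in the 55 cells with Lcn2 and at 2896 CPM in the 48 without it, a ratio of 0.341 (0.302 to 0.385). At D4 the values were 590 CPM in 49 cells and 1810 CPM in 51 cells (0.326, 0.271 to 0.390), and at D7 585 CPM in 94 cells and 1124 CPM in 72 cells (0.521, 0.454 to 0.596). In barcodes without proximal tubule RNA the ratios were 0.310, 0.322 and 0.504. Egf was not alone in this at D4 and D7. Slc12a1, one of the genes that chose the cells, had ratios of 0.719, 0.782 and 0.904 at D1, D4 and D7 over all TAL barcodes. Those of Wfdc15b were 1.25, 0.748 and 0.660, and those of Ckb 1.20, 0.545 and 0.682.

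The cells with a Lcn2 UMI held more Spp1 and Clu. Spp1 was 2.33, 3.34 and 2.58 times higher in cells with Lcn2 than in cells without it at D1, D4 and D7, and Clu 4.42, 9.63 and 3.98 times. Umod was 1.26, 1.36 and 1.12 times higher, and without proximal tubule RNA 1.16, 1.45 and 0.997 times. Median depths in cells with Lcn2 were 6239, 4632 and 6082.5 UMIs at D1, D4 and D7, against 4116, 4699 and 5697.5 UMIs in cells without it, and in barcodes without proximal tubule RNA 4943, 4241 and 4756 UMIs against 3495, 3492.5 and 4489 UMIs. Carried proximal tubule RNA was 18.9, 33.4 and 31.8% in cells with Lcn2 against 40.1, 41.5 and 31.4% in cells without it. Deeper cells are more likely to show a Lcn2 UMI, and the part of depth in these ratios was not tested. The median mitochondrial shares were 12.4, 13.9 and 11.8% with Lcn2 against 18.7, 16.4 and 16.5% without it. Cells without Lcn2 also held more Spp1 than the D0 cells, at 11417, 5668 and 8043 CPM at D1, D4 and D7 against 1639 CPM at D0. Cells of 1 library are not replicates, so these ratios describe those libraries.

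**Figure D4:**
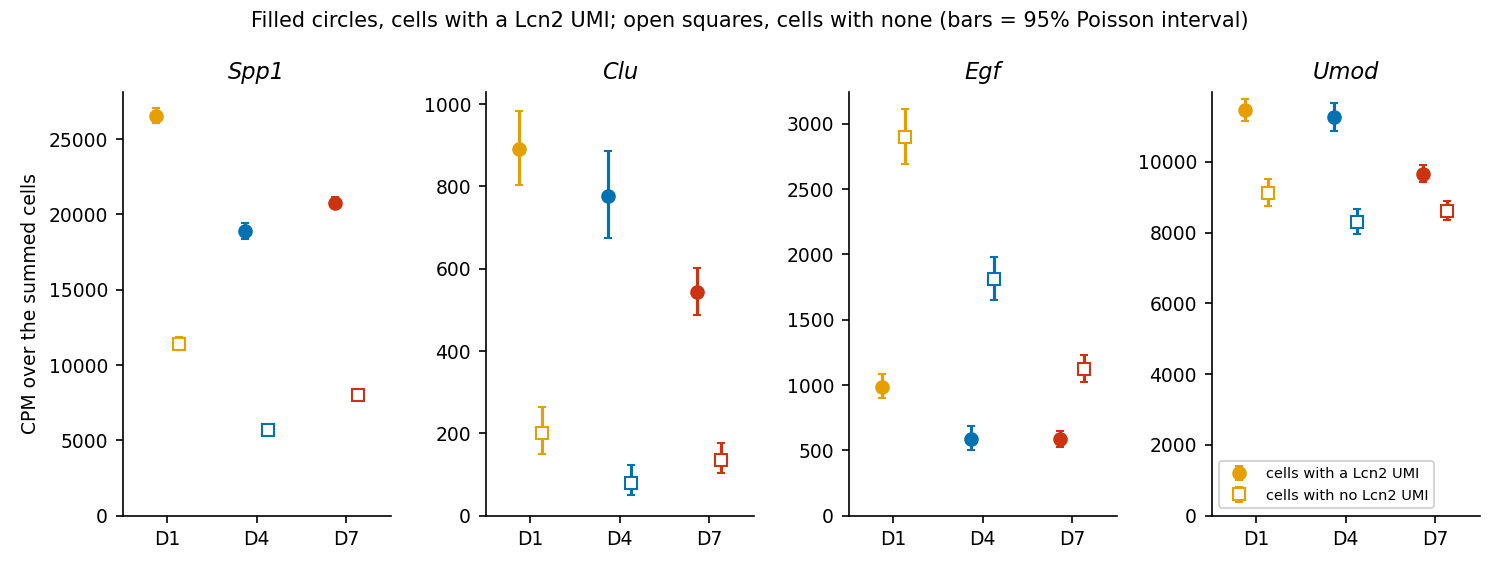
CPM of Spp1, Clu, Egf and Umod summed over TAL cells with a Lcn2 UMI (filled circles) and with none (open squares) at D1, D4 and D7; bars are 95% Poisson intervals. At each day Spp1 and Clu are higher and Egf lower in the cells with Lcn2, and Umod differs by at most 1.36-fold.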

How the data were processed

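Single-cell 3′ libraries of mouse kidney, 1 per time point, were deposited by the authors as filtered gene-by-barcode matrices of UMI counts, not normalized. Cell Ranger 3.1.0 and the build mm10 are named in the submitters' processing notes, and the matrix headers name software version 3.0.1. The annotation release is not given in the sources used here. The files held 27998 genes in 16426, 12730, 16427 and 15087 barcodes at D0, D1, D4 and D7, with 99337001, 85009491, 91122085 and 94512170 UMIs.

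Counts of the chosen cells were summed per library and scaled to CPM. Symbols shared by several rows (56) were left out. Genes with a mean of at least 50 CPM were tested against 2-fold on CPM plus 10. Ratios of single genes have exact conditional Poisson intervals and shares exact Clopper-Pearson intervals, at 95%, covering counting error only. No doublet caller was run. Carried RNA was estimated as the median over 16 proximal tubule genes of the TAL level over the proximal tubule level. Named genes were, per day, the 10 highest and 10 lowest ratios with at most 20% carried RNA, up to 4 per list, and Umod, Cldn16, Tmem207, Egf, Lcn2, Spp1 and Havcr1. Other genes were named after their values were seen. The members and gene lists were chosen with earlier results of these data known. Alternatives covered the gate, the mitochondrial limit, carried RNA, thinning, scaling with edgeR 4.0.16, the filter and the pseudocount. Python 3.11.15, numpy 2.4.6, scipy 1.17.1 and pandas 2.3.3 were used. Some genes of the lists are not reported here.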

Additional observations from a re-analysis of the deposited data

Results flagged for a closer look

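Barcodes above the 50% mitochondrial limit were used in no comparison, and some of them met the rest of the TAL rule. They were 15 of 1302 such barcodes at D1 (1.15%, 0.646 to 1.89) and 7 of 632 at D7 (1.11%, 0.446 to 2.27), against 27 of 1941 at D0 (1.39%, 0.919 to 2.02). A count of 0 would allow 0.230% at D1, 0.475% at D7 and 0.155% at D0, which says only that these counts are above 3. At D4 it was 1 of 324 barcodes.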

How the results depend on the processing

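No paired analysis was possible because each time point has 1 library. Of the results other than single genes, 71 stayed near their reported value under an alternative and 61 moved. With at least 5 Slc12a1 UMIs, TAL shares were 0.459% at D4 and 0.906% at D7, and carried RNA at D7 was 26.4%. With cells chosen by Umod, the shares were 2.04, 2.91, 1.84 and 3.0% at D0, D1, D4 and D7, carried RNA at D4 was 47.9%, 6 genes were lower at D1 and 11 at D7, and 24.5% of thinned cells had Lcn2 at D7; of the 295, 332, 296 and 433 cells of that gate, 176, 169, 130 and 192 outside the TAL rule held Slc12a3. With at most 25% mitochondrial UMIs, the shares were 0.429, 0.727, 0.661 and 1.24%, carried RNA at D0 was 32.8%, 66 genes were higher at D1 and 28 lower at D7. Without barcodes holding proximal tubule RNA, the shares were 0.504, 0.718, 0.286 and 0.595%, carried RNA 4.33, 3.82, 6.97 and 5.40%, and 69, 115 and 128 genes were higher and 20, 62 and 35 lower at D1, D4 and D7. With carried RNA taken off, 94, 107 and 119 were higher and 53, 51 and 39 lower. Thinned to 1000 UMIs, 217, 262 and 282 were higher and 156, 164 and 96 lower, with fewer counts per gene. With TMM factors, 21 were higher at D1 and 32 at D4, and 20 lower at D1. At a mean of at least 200 CPM, with 580 genes tested, 11, 16 and 23 were higher and 3, 5 and 5 lower, and 10 immediate-early and 6 injury genes were higher at D7. With no filter, 184, 218 and 226 were higher and 59, 112 and 51 lower. With a pseudocount of 1 CPM, 62 were higher at D1. Unthinned, 56.6% of cells had Lcn2 at D7. For the named genes 154 values stayed, 50 moved and 3 reversed at D7: Cd74 to a log2 ratio of 0.83 with at least 5 Slc12a1 UMIs, and S100g to -0.48 there and to -0.47 with at most 25% mitochondrial UMIs. Umod ranged between -0.22 and 0.15 over the alternatives, and Cldn16 turned to -0.15 in thinned cells. Apart from the numbers of genes tested and cells kept, the cause of these shifts was not tested. The precision was limited by 100 to 166 TAL cells per library and by the lack of replicates.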
